A study of Mus musculus with 8 samples.

Results

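The transcripts of the mitochondrial genome were described in small intestinal crypts of mice. Crypts are pits at the base of the villi in which stem cells divide and renew the epithelium. Members were taken by position, as every row of the deposited count table that lies on chromosome MT. There were 37 such genes of 55880 in the table: 13 mRNAs, 2 ribosomal RNAs and 22 transfer RNAs. All 37 had the start, end and strand of GENCODE M21, so positions are on build GRCm38. The series profiled 8 RNA-seq libraries from C57BL/6N mice before irradiation, 4 labelled wild type and 4 labelled miR-29ab1-/-, here called labelled knockout. The tissue was the same in both groups, and the labels give no age, no litter and no batch. Its title asks whether miR-29ab acts on intestinal stem cells through fatty acid oxidation, a pathway that feeds electrons to the mitochondrial respiratory chain. The labels name mice but do not say how crypts were pooled, so p-values measure only the spread between these libraries.

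The mitochondrial genome is a small circle transcribed from both strands as long precursor RNAs. Transfer RNAs lie between most of the other genes, and their excision releases the mRNAs and rRNAs. All of the mRNAs encode subunits of the respiratory chain or of ATP synthase, and the rRNAs and tRNAs serve the mitochondrial ribosome that translates them. In crypts, mitochondrial respiration is known to be active in the cycling stem cells, while neighbouring Paneth cells rely more on glycolysis.

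The 8 libraries held between 13879472 and 17368666 counts each. The 2 microRNA genes of the targeted locus were read beside the labels. Mir29a had 0 counts in every library, and Mir29b-1 had 0 counts in all 4 labelled wild type but 2, 5, 7 and 3 in labelled knockout replicates 1 to 4, which goes against the labels. Counts this low on the precursor genes do not measure the mature microRNAs and cannot settle the genotype of any library. Groups are therefore named by label throughout. Epithelial markers were abundant, with the 14 crypt epithelium markers summing to 25164 to 50110 CPM (the usual depth-scaled unit, here on library sizes adjusted by the trimmed mean of M-values, TMM). By label, that was 25164 to 28478 CPM in the libraries labelled wild type. In labelled knockout replicates 1 to 4 it was 42486, 50110, 34029 and 27522 CPM, and the groups overlapped. The 14 markers did not all move alike. Labelled knockout over wild type, their log2 fold changes ran from -0.45 to 0.89 (median 0.058), with 9 above 0 and 5 below. Whether these values bear on the mitochondrial rows was not tested. The 8 T, B and plasma cell markers summed to 60.8 to 147 CPM, the 5 myeloid markers to 9.79 to 23.2 CPM, and the 7 stroma and muscle markers to 1.41 to 16.4 CPM. Labelled knockout replicate 4 stood apart in villus enterocyte markers, 9 genes that summed to 41185 CPM there and to 6972 to 19627 CPM in the other 7 libraries.

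A stretch of mouse chromosome 1 carries a nearly identical copy of part of the mitochondrial genome. Its effect on the counts of the 13 mRNAs was not tested. GENCODE M21 transcripts of the mitochondrial genes were aligned to all other GENCODE M21 transcripts. Next to each other, 7 pseudogenes on the minus strand of chromosome 1 (GRCm38, 24611535 to 24616197) matched mitochondrial mRNAs at 99% identity or more. Over 4140 aligned bases there were 2 mismatches. The aligned stretches run in the same order over mitochondrial positions 6390 to 11042, and the spacing between them differs from that of the mitochondrial genome by a single base. Within these positions lie the whole of 6 mRNAs (mt-Co2, mt-Atp8, mt-Atp6, mt-Co3, mt-Nd3 and mt-Nd4l) and the end of mt-Co1 and the start of mt-Nd4. The sequences below, of the reference build GRCm38, show how little separates the copies, with the only mismatched base in capitals. The mitochondrial sequence of these C57BL/6N mice was not read, so whether they carry these differences was not tested. Positions are counted from 1 at the 5′ end of the mitochondrial gene. Of mt-Nd3 and its copy Gm28438, positions 1 to 33 are shown, which hold T3C, the only difference in 345 aligned bases. Of mt-Co1 and its copy Gm29216, positions 1063 to 1096 are shown, which hold A1066T, the only difference in 483. Of mt-Co2 and its copy Gm28661, identical over 681 bases, the first 60 are shown.
mt-Nd3: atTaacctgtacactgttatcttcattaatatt
Gm28438: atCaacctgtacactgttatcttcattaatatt
mt-Co1: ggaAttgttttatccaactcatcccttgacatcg
Gm29216: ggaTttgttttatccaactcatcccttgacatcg
mt-Co2: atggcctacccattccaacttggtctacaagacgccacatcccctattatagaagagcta
Gm28661: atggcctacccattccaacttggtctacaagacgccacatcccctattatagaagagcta

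The mitochondrial genome took between 6.31% and 11.6% of all counts, and the share varied more between libraries of a group than between the groups. Mitochondrial mRNAs made up 7.31%, 10.9%, 9.59% and 6.65% of counts in labelled wild type replicates 1 to 4, and 11.3%, 8.30%, 6.56% and 5.86% in labelled knockout replicates 1 to 4. The highest and the lowest of the 8 libraries were both labelled knockout, and the groups overlapped. The means were 8.61% ± 1.99 in the libraries labelled wild type and 8.01% ± 2.43 in those labelled knockout (SD, n = 4 each). Their difference of -0.61 percentage points was smaller than either SD, and it ran from -1.71 without labelled knockout replicate 1 to 0.157 without labelled wild type replicate 2. Without labelled knockout replicate 4 it was 0.108. The rRNAs took 0.234% ± 0.0732 and 0.260% ± 0.127 of counts, and the tRNAs 0.0240% ± 0.00577 and 0.0223% ± 0.00853, in the same order (SD, n = 4 each). These shares are sums over the members and are given without a test. In bulk tissue, fewer cells of a type and less RNA per cell cannot be told apart.

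**Figure D1:**
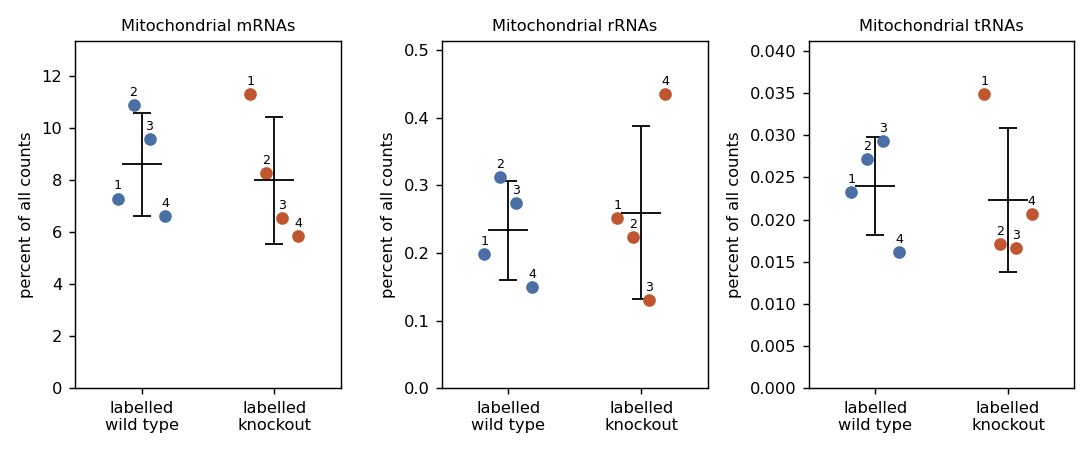
Percent of all counts on mitochondrial mRNAs, rRNAs and tRNAs (y axes, each from 0) by group label (x axes). Points are libraries with their replicate number, and bars are the group mean and SD (n = 4). The groups overlap in each panel, and labelled knockout replicate 4 is the lowest library for mRNAs and the highest for rRNAs.

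Across the groups, none of the mitochondrial transcripts passed the test. Of the 37, 25 had enough counts to be tested: 13 mRNAs, 2 rRNAs and 10 tRNAs. The count called was 0 of 25 (edgeR quasi-likelihood test, smallest Benjamini-Hochberg adjusted p = 0.994), against 0.0201% of the 14897 genes tested over the whole table. At an unadjusted p under 0.05 the count was also 0 of 25, against 2.70% of all genes tested. DESeq2 and limma-voom called 0 of 25 as well, against 0.151% and 0.0134% of the genes they gave an adjusted p. In 0 of 25 did the groups fail to overlap, against 1.53% of all genes tested (0.913% higher and 0.618% lower in the libraries labelled knockout). In the authors' deposited table, 34 members have an adjusted p, and the smallest is 1.00.

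The 3 most counted mRNAs were mt-Co1, mt-Cytb and mt-Nd1. mt-Co1 (ENSMUSG00000064351, chromosome MT, 5328 to 6872, plus strand) encodes the catalytic subunit of cytochrome c oxidase, complex IV. It was at 28603, 52070, 43488 and 29177 CPM in labelled wild type replicates 1 to 4 and at 51393, 39031, 26887 and 32183 CPM in labelled knockout replicates 1 to 4. Replicates 2 and 3 were high among the libraries labelled wild type, replicate 1 was high among those labelled knockout, and the groups overlapped over nearly their whole ranges. Labelled knockout over wild type, the log2 fold change came to -0.037 with an SE of 0.42 (edgeR adjusted p = 0.998). Its 95% interval ran from 0.510-fold to 1.86-fold.

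mt-Cytb (ENSMUSG00000064370, 14145 to 15288, plus strand) encodes cytochrome b, the mitochondrial subunit of complex III. It was at 12583, 20981, 18164 and 12588 CPM in the libraries labelled wild type and at 22038, 16827, 11583 and 12533 CPM in those labelled knockout. The same 3 libraries as for mt-Co1 were high, the groups overlapped, and edgeR gave a log2 fold change of -0.030 with an SE of 0.36 (adjusted p = 0.998). mt-Nd1 (ENSMUSG00000064341, 2751 to 3707, plus strand), a membrane subunit of complex I, was at 8142, 12716, 11941 and 7042 CPM against 13915, 10334, 6434 and 7672 CPM. The groups overlapped again, with -0.055 on the log2 scale (SE 0.36, edgeR adjusted p = 0.994). These 3 mRNAs held 74.6% to 77.0% of mitochondrial mRNA counts in every library.

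The other complex I mRNAs lying wholly or partly outside the copied stretch showed the same libraries high. mt-Nd2 (3914 to 4951) was at 3451 to 6620 CPM in the libraries labelled wild type and 3184 to 6555 CPM in those labelled knockout, with a log2 fold change of -0.078 (SE 0.34). mt-Nd4 (10167 to 11544) was at 4376 to 7859 and 4085 to 7923 CPM, with -0.066 (SE 0.32). mt-Nd5 (11742 to 13565) was at 4443 to 8868 and 4519 to 9405 CPM, with 0.046 (SE 0.34).

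mt-Nd6 (13552 to 14070) is the only mRNA on the minus strand, the strand with few other genes, and encodes a further complex I subunit. It was at 1370, 2360, 2188 and 1277 CPM in labelled wild type replicates 1 to 4 and at 2354, 1932, 1198 and 1826 CPM in labelled knockout replicates 1 to 4, with a log2 fold change of 0.023 (SE 0.30). For these 4 genes the edgeR adjusted p was 0.994 to 0.998. Against mt-Nd5, its neighbour on the plus strand with which it shares 14 bases, mt-Nd6 had 23.9 to 29.9 counts per 100 in the 8 libraries. The sources used here do not say whether counting used strand, so reads over the shared bases may stand on either row.

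For each of the 7 most counted mRNAs, the 3 highest libraries were labelled wild type replicates 2 and 3 and labelled knockout replicate 1. Over all 13 mRNAs, 10 had these 3 highest, and 10 were lowest in labelled knockout replicate 3. CPM is scaled by TMM, with factors of 0.835 for labelled knockout replicate 4 and 1.13 for labelled knockout replicate 3. As a share of all counts, without that scaling, mitochondrial mRNAs were lowest in labelled knockout replicate 4, at 5.86% against 6.56%. The order of these libraries thus depends on the scaling. The spread between libraries of a group was wide for every mRNA: the within-group SD of log2 CPM was 0.40 to 1.02, above the median of 0.31 over all genes tested in 13 of 13. Of the 13 fold changes, 10 were below 0 and 3 above, with a median of -0.055 against 0.011 over all genes tested. Leaving out 1 library at a time moved this count. Without labelled knockout replicate 3, 1 of 13 was below 0 (median 0.092), without labelled knockout replicate 4 it was 4 (0.024), without labelled wild type replicate 2 it was 4 (0.12) and without labelled wild type replicate 3 it was 3 (0.044). Without labelled knockout replicate 1 it was 12 (-0.29), with medians of -0.15 and -0.16 without labelled wild type replicates 1 and 4, and -0.093 without labelled knockout replicate 2.

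**Figure D2:**
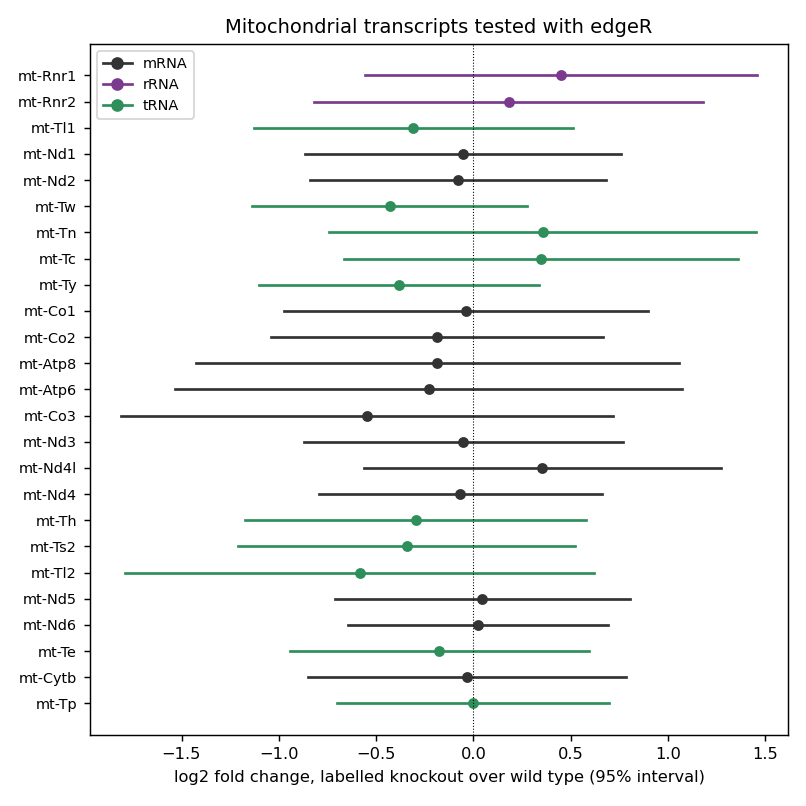
Log2 fold change of labelled knockout over wild type (x axis) for the 25 mitochondrial transcripts tested with edgeR, in their order on the mitochondrial genome (y axis). Points are estimates, lines are 95% intervals and colours give the kind of RNA. Every interval includes 0, and the narrowest of the mRNAs, that of mt-Nd6, runs from -0.65 to 0.69.

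The shares of complexes I, III and IV in the mitochondrial mRNA pool were nearly the same in every library, while that of complex V varied widely. Complex I mRNAs (7 genes) held 34.5% ± 0.884 of mitochondrial mRNA counts in the libraries labelled wild type and 34.5% ± 0.888 in those labelled knockout. Complex III (mt-Cytb) held 19.1% ± 0.539 and 19.1% ± 0.878, and complex IV (3 genes) 46.0% ± 1.02 and 46.1% ± 0.519 (SD, n = 4 each). These 3 shares differed between the groups by at most 0.083 percentage points, less than the SD in either group. Leaving out 1 library at a time, the difference ran from -0.316 (without labelled wild type replicate 4) to 0.421 points (without labelled knockout replicate 3) for complex I. It ran from -0.276 to 0.400 for complex III (without labelled knockout replicates 3 and 4) and from -0.375 to 0.409 for complex IV (without labelled wild type replicates 1 and 2). Complex V (mt-Atp6 and mt-Atp8, subunits of ATP synthase) held 0.463% ± 0.210 and 0.349% ± 0.199, and both genes lie inside the copied stretch. That difference of -0.114 points ran from -0.209 without labelled knockout replicate 1 to -0.0487 without labelled wild type replicate 3. The shares are of counts, which favour long genes.

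Per length, the mRNAs fell into separate ranges that followed the copied stretch. Levels are given as CPM per kb of gene length, as the mean over all 8 libraries. mt-Co1 was at 24501 ± 6618 CPM per kb, mt-Cytb at 13909 ± 3641 and mt-Nd1 at 10214 ± 2969 (SD, n = 8), and this order held in 8 of 8 libraries. mt-Nd2 at 4494 ± 1354 and mt-Nd4 at 4263 ± 1124 were in that order in 7 of 8 libraries, as were mt-Nd4 and mt-Nd5 at 3674 ± 1000.4. mt-Nd5 was above mt-Nd6, at 3493 ± 924, in 5 of 8, and each neighbouring pair of these 4 differed by less than the SD of either.

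The 6 mRNAs wholly inside the copied stretch lay far below. mt-Atp6 was at 509 ± 327 CPM per kb and mt-Co2 at 504 ± 207, each above the other in 4 of 8 libraries, followed by mt-Co3 at 404 ± 255, mt-Nd4l at 115 ± 47.7, mt-Nd3 at 36.9 ± 14.2 and mt-Atp8 at 14.1 ± 6.17 (SD, n = 8). In 8 of 8 libraries, every one of the 5 mRNAs wholly outside the copied stretch was above every one of these 6. mt-Co2 and mt-Co3, which encode the other mitochondrial subunits of complex IV, were 48.6 and 60.6 times below mt-Co1, of the same complex. These levels are of the rows as deposited. The sources used here do not say how reads that match both genomes were assigned.

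**Figure D3:**
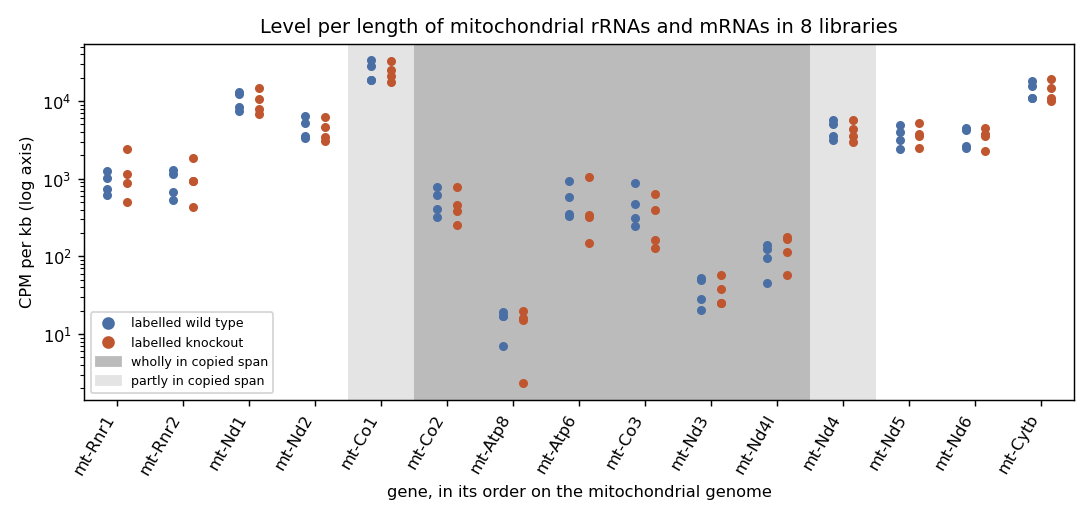
Level in CPM per kb (y axis, log axis) of the mitochondrial rRNAs and mRNAs in their order on the mitochondrial genome (x axis), with 1 point per library. Dark shading marks genes wholly within the stretch copied on chromosome 1 and light shading genes partly within it. The 6 genes in dark shading have mean levels of 14.1 to 509 CPM per kb, and the 5 unshaded mRNAs 3493 to 13909.

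Gm28661, the copy of mt-Co2, had a mean of 4712 counts per library against 5294 on mt-Co2 itself, so 52.4% ± 3.31 of the counts of the pair stood on the mitochondrial row (SD, n = 8). For mt-Atp6 and its copy Gm10925 that share was 59.7% ± 9.17, for mt-Co3 and Gm28437 it was 66.8% ± 8.38 and for mt-Nd4l and Gm10222 it was 54.9% ± 10.4. mt-Nd3, whose reference sequence differs from that of its copy by T3C, had 13.7% ± 2.43, with 197 counts per library against 1271 on Gm28438. Whether these mice carry that difference was not tested. Where the copy covers only a part of the gene the share was near the whole, at 99.7% ± 0.164 for mt-Co1 with Gm29216 and 98.8% ± 0.222 for mt-Nd4 with Gm28439. Gm28439 and Gm10222 were named after their values were seen, to complete the cluster.

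Levels were also summed over each mitochondrial row and its copy. The sum of mt-Co2 and Gm28661 was 955 ± 369 CPM per kb, 25.7 times below mt-Co1, and that of mt-Nd4l and Gm10222 was 204 ± 61.8, 120 times below (SD, n = 8). Reads that were left out because they match both places are in neither row, so whether the copies account for the low levels was not tested. The level of mt-Nd4 rises if its counts are set against the 502 bases that have no copy, to at most 11703 ± 3086 CPM per kb, and that of mt-Co1, over 1062 such bases, to at most 35644 ± 9628. The 7 copies together took 0.0949% ± 0.0268 of all counts in the libraries labelled wild type and 0.0945% ± 0.0408 in those labelled knockout (SD, n = 4 each). None of the 7 was called (edgeR adjusted p = 0.994 to 0.999). A further 10 nuclear genes matched mitochondrial mRNAs at 90.7% to 97.6% identity, and 3 of them had a mean count of at least 10.

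**Figure D4:**
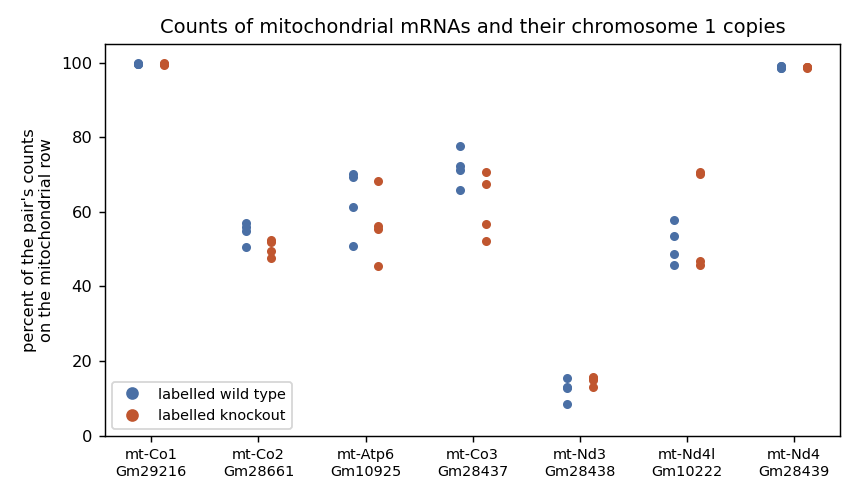
Percent of the counts of each mitochondrial mRNA and its chromosome 1 copy that stand on the mitochondrial row (y axis), for 7 pairs (x axis), with 1 point per library. mt-Nd3 lies lowest, at 8.62% to 15.9%, and mt-Co1 and mt-Nd4 lie above 98.5%.

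Among the mRNAs, the 6 inside the copied stretch had the widest spread between libraries. mt-Co3 (8607 to 9390) was at 192, 368, 696 and 248 CPM in labelled wild type replicates 1 to 4 and at 491, 313, 101 and 126 CPM in labelled knockout replicates 1 to 4. Labelled wild type replicate 3 was high, labelled knockout replicates 3 and 4 were low, and the groups overlapped. The estimate was -0.55 on the log2 scale (SE 0.56, edgeR adjusted p = 0.994), the furthest from 0 of the 13 mRNAs, and without labelled wild type replicate 3 it was -0.063, against -1.06 without labelled knockout replicate 1. Summed with its copy it was -0.38.

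mt-Atp6 (7927 to 8607), the proton channel subunit of ATP synthase, was at 391, 227, 638 and 241 CPM against 727, 230, 100.3 and 220 CPM, with a log2 fold change of -0.23 (SE 0.58). mt-Co2 (7013 to 7696), which receives electrons from cytochrome c, was at 222 to 542 CPM in the libraries labelled wild type and 176 to 540 in those labelled knockout, with -0.19 (SE 0.38). mt-Nd4l (9877 to 10173) was at 13.3 to 41.4 and 17.0 to 52.5 CPM, with 0.36 (SE 0.41), and summed with its copy it was 0.16. mt-Nd3 (9459 to 9806) was at 7.17 to 18.1 and 8.60 to 19.9 CPM, with -0.052 (SE 0.36). Summed with their copies, mt-Nd3 was at -0.32, mt-Atp6 at -0.15 and mt-Co2 at -0.063, none of them called. Each had an edgeR adjusted p of 0.994 or more.

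mt-Atp8 (7766 to 7969), the shortest mRNA, was at 1.44 to 3.86 CPM in the libraries labelled wild type and 0.471 to 4.07 in those labelled knockout, with -0.19 on the log2 scale (SE 0.55, edgeR adjusted p = 0.994). It shares its last 43 bases with mt-Atp6, in capitals here, so reads over them cannot be told apart by position. The rest lies between the copies of mt-Co2 and mt-Atp6 on chromosome 1, where no transcript aligned.
mt-Atp8: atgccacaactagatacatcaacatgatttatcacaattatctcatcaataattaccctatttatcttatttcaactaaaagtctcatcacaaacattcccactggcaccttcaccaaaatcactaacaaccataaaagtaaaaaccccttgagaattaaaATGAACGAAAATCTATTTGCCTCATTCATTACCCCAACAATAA

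The mitochondrial rRNAs, the 12S (mt-Rnr1, 70 to 1024) and 16S (mt-Rnr2, 1094 to 2675) components of the mitochondrial ribosome, were set apart by 1 library. mt-Rnr1 was at 714, 1189, 979 and 584 CPM in labelled wild type replicates 1 to 4 and at 1095, 848, 483 and 2310 CPM in labelled knockout replicates 1 to 4. mt-Rnr2 was at 1061, 2028, 1803 and 848 CPM against 1465, 1477, 676 and 2897 CPM. Labelled knockout replicate 4 was the highest of all 8 libraries for both, and the other 3 libraries of its group lay within or below the range of the group labelled wild type. The log2 fold changes were 0.45 (SE 0.45) for mt-Rnr1 and 0.18 (SE 0.44) for mt-Rnr2, and edgeR gave an adjusted p of 0.994 for each. Leaving out that library turned them to -0.099 and -0.25. Per length the rRNAs were at 1074 ± 601 and 968 ± 454 CPM per kb (SD, n = 8), below the mRNAs outside the copied stretch, and the sources used here do not say whether rRNA was depleted or poly(A) RNA selected.

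Set against the mRNAs of the same genome, the rRNAs of that library stood further out. There were 2.72, 2.86, 2.86 and 2.25 rRNA counts per 100 mitochondrial mRNA counts in labelled wild type replicates 1 to 4, and 2.22, 2.69, 1.99 and 7.41 in labelled knockout replicates 1 to 4. The group means were 2.67 ± 0.290 and 3.58 ± 2.57 (SD, n = 4 each), and the second was 2.30 ± 0.359 without replicate 4 (n = 3). Nuclear rRNA genes took 0.0587% of counts in labelled knockout replicate 4 and 0.0273% to 0.216% in the other libraries. The villus enterocyte markers (9 of 9 detected) summed to 9867 to 18617 CPM in the libraries labelled wild type and to 17432, 19627, 6972 and 41185 CPM in labelled knockout replicates 1 to 4. The 5 red blood cell markers summed to 55.1 CPM in labelled knockout replicate 4 and to 2.69 to 15.03 CPM elsewhere. The part of either in the rRNA counts was not tested.

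**Figure D5:**
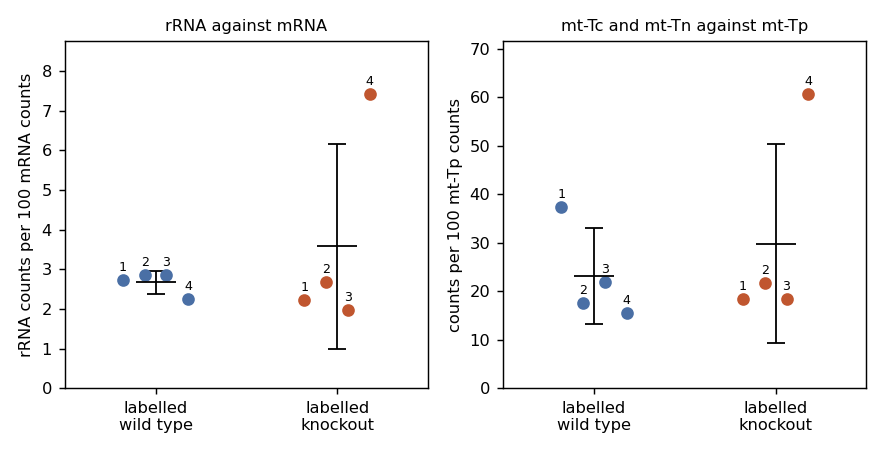
Left, mitochondrial rRNA counts per 100 mitochondrial mRNA counts. Right, summed counts of mt-Tc and mt-Tn per 100 counts of mt-Tp. The y axes start at 0, points are libraries with their replicate number, and bars are the group mean and SD (n = 4). Labelled knockout replicate 4 is the highest library in both panels, at 7.41 and 60.6.

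Of the 22 tRNAs, 10 passed the filter on low counts, and 1 carried most of the signal. Mature tRNAs are short and folded, so RNA-seq libraries can also count precursors and fragments. Which of these the rows hold was not tested, and the level of a tRNA here is not that of the charged, working molecule. mt-Tp, the proline tRNA (15356 to 15422, minus strand), held 56.7% to 75.1% of all mitochondrial tRNA counts, with 1973, 3349, 3075 and 1618 counts in labelled wild type replicates 1 to 4 and 3428, 1886, 1757 and 1796 in labelled knockout replicates 1 to 4. The next were mt-Tc for cysteine, mt-Tl2 for a leucine and mt-Tn for asparagine, with means of 306, 295 and 284 counts per library. The 4 sequences are those of the genes, with the anticodon, found as its 3 letters after a T in the middle of the sequence, in capitals.
mt-Tp: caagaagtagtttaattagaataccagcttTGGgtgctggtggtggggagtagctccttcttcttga
mt-Tc: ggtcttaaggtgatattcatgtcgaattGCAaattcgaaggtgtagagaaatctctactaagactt
mt-Tn: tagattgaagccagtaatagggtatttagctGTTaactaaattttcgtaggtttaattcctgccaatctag
mt-Tl2: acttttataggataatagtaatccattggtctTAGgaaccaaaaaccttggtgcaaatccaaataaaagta

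For mt-Tp edgeR estimated -0.0019 on the log2 scale (SE 0.31, adjusted p = 0.999), the nearest to 0 of all 25. mt-Tc (5192 to 5257) and mt-Tn (5089 to 5159) lie close together on the minus strand and moved alike, at 23.9, 19.9, 18.9 and 9.22 CPM and 21.3, 17.2, 20.5 and 7.60 CPM in the libraries labelled wild type. In labelled knockout replicates 1 to 4 they were at 23.4, 13.8, 10.7 and 44.2 CPM and at 23.2, 12.9, 8.49 and 41.0 CPM. As for the rRNAs, labelled knockout replicate 4 was the highest library for both. Their log2 fold changes were 0.35 (SE 0.45) and 0.36 (SE 0.49), and -0.18 and -0.17 without that library.

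Other libraries stood out for the remaining tRNAs. On the plus strand, mt-Tl2 (11671 to 11741) was at 19.8, 11.9, 46.5 and 12.6 CPM in labelled wild type replicates 1 to 4 and at 30.3, 11.5, 8.78 and 10.1 CPM in labelled knockout replicates 1 to 4, with -0.58 on the log2 scale (SE 0.53, edgeR adjusted p = 0.994). Labelled wild type replicate 3 was high, and without it the value was 0.040, against -1.16 without labelled knockout replicate 1. mt-Tl1, mt-Ts2 and mt-Th, for leucine, serine and histidine, had means of 69.6, 56.4 and 46.6 counts per library, and each was highest in labelled wild type replicate 3 and lowest in labelled knockout replicate 4. mt-Te, mt-Ty and mt-Tw, for glutamate, tyrosine and tryptophan, had 51.5, 41.1 and 31.1, with mt-Te and mt-Ty on the minus strand. The fold changes of these 6 were below 0, from -0.43 for mt-Tw to -0.17 for mt-Te, all with edgeR adjusted p = 0.994.

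The 12 untested tRNAs had at most 16 counts in a library. mt-Tf, for phenylalanine, and mt-Td, for aspartate, had 0 counts in every library, which allows up to 3 counts each by counting error alone. The 5 tRNAs inside the copied stretch were all among the 12 and had at most 5 counts in a library and 17 in all. Of the 17 outside it, 10 were tested. By strand of the gene, 5 of 8 minus-strand and 5 of 14 plus-strand tRNAs were tested. Whether counting used strand is not stated, so reads from the other strand may stand on any tRNA row.

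The nuclear genes that serve mitochondrial transcription and translation were read beside these RNAs. In 5 lists no tested member passed the threshold (edgeR smallest adjusted p = 0.994). Of the 10 genes of mitochondrial transcription, 8 were below 0 and 2 above, with a median log2 fold change of -0.20, against 0.011 and 48.0% below 0 over all genes tested. Tfam, which binds and compacts the mitochondrial genome and starts its transcription, was at 63.7 ± 5.33 CPM in the libraries labelled wild type and 54.5 ± 15.5 in those labelled knockout (log2 fold change -0.22, SE 0.19). Mterf1b, a termination factor gene that has a close paralog with which it may share reads, was at 2.18 ± 0.726 and 1.17 ± 0.393 CPM, with -0.88 (SE 0.38), and Mterf4, which acts in mitochondrial ribosome assembly, had -0.18 (SE 0.16).

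Among 15 genes of mitochondrial DNA replication and nucleotide supply, 11 were below 0 (median -0.035). Primpol, a primase, had -0.21 (SE 0.16), Tk2, the mitochondrial thymidine kinase, 0.25 (SE 0.20) and Mgme1, an exonuclease, -0.25 (SE 0.24). Among 31 tested of 32 genes of mitochondrial RNA processing, modification and decay, 25 were below 0 (median -0.13), with Trmu, a tRNA thiouridylase, at -0.31 (SE 0.14), Mtpap, the mitochondrial poly(A) polymerase, at -0.25 (SE 0.13) and Fastkd2, an RNA-binding protein of the 16S rRNA, at -0.33 (SE 0.18). In 2 of the 31, both lower, the groups did not overlap, against 0.618% of all genes tested in that direction. These were Trmu and the rRNA methyltransferase gene Mrm2 (-0.23, named after its value was seen). In each other list of nuclear genes that serve mitochondria, core subunits and complex II included, the count was 0 in both directions. No result about this list is drawn from these 2 genes. Among 22 genes of tRNA charging, 21 were below 0 (median -0.13), with Pars2 at -0.27 (SE 0.19), Aars2 at -0.23 (SE 0.18) and Yars2 at -0.28 (SE 0.24), which charge proline, alanine and tyrosine tRNAs. Among 12 translation and insertion factors, 10 were below 0 (median -0.14), with the elongation factors Gfm1 at -0.39 (SE 0.19) and Tufm at -0.31 (SE 0.19) and the mt-Co1 activator Taco1 at -0.18 (SE 0.14). Each gene named here had an edgeR adjusted p of 0.994.

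Labelled knockout replicate 4 had the lowest summed level of the 8 libraries for each of them. Without it the medians were -0.043 for transcription, 0.028 for replication, -0.047 for RNA processing, -0.038 for tRNA charging and -0.088 for translation factors, and 15 of 22 tRNA charging genes were below 0. The comparison had 51.5% of all genes tested below 0 without labelled knockout replicate 4. Leaving out labelled knockout replicate 3 instead moved the medians the other way, to -0.31, -0.13, -0.28, -0.26 and -0.21 in the same order. In that setting 21 of 22 tRNA charging genes and 49.0% of all genes tested were below 0.

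Nuclear partners of the mitochondrial subunits were read last. Of 19 tested nuclear core subunits of complexes I, III, IV and V, 17 were below 0 and none passed the threshold (median -0.14), with Uqcrfs1, the Rieske protein of complex III, at -0.29 (SE 0.15), Ndufs1 of complex I at -0.23 (SE 0.14) and Cox5a of complex IV at -0.22 (SE 0.14), all with edgeR adjusted p = 0.994. All 4 subunits of complex II, which has no mitochondrially encoded part, were below 0 (median -0.18), and remained so with any 1 library left out, with Sdha at -0.23 (SE 0.16), Sdhc at -0.19 (SE 0.15) and Sdhd at -0.17 (SE 0.18). Without labelled knockout replicate 4 the core subunits still had 17 of 19 below 0, with a median of -0.077, and without labelled wild type replicate 4 it was 15 of 19 and -0.072. Their median was furthest from 0 without labelled knockout replicate 1, at -0.19 with 19 of 19 below 0. The median of complex II ran from -0.25 without labelled wild type replicate 1 to -0.11 without labelled knockout replicate 4. The core subunits summed to 5390, 6172, 5872 and 6869 CPM in labelled wild type replicates 1 to 4 and to 5821, 5291, 5755 and 5223 CPM in labelled knockout replicates 1 to 4. The highest library by that sum, labelled wild type replicate 4, had 6.65% of its counts on mitochondrial mRNAs, below 5 of the other 7 libraries.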

How the data were processed

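The submitters' processing notes name HISAT2 and DESeq2 without versions, and the sources used here do not name the counter, strand setting, annotation or build. The authors deposited whole-number counts per gene and library. From the authors' deposited table, log2 fold changes were read but not printed and adjusted p-values are given only beside that name, and gene length, the other column used, came from the same table. The test was that of edgeR 4.0.16 (R 4.3.3) (quasi-likelihood test, robust dispersion, TMM, filterByExpr, Benjamini-Hochberg adjustment over all genes, threshold 0.05), checked on simulated data. SEs are the absolute log2 fold change over the square root of F, and 95% intervals use the t distribution of that test. DESeq2 1.42.0, limma-voom (limma 3.58.1), RLE, other filters, nuclear-only scaling, a replicate block and leaving out each library were alternatives. Replicates all differed beyond counting error (lowest chi-square over its degrees of freedom 32.3). Copies were sought with BLAST 2.17.0 (megablast) at 90% identity over at least 100 bases of GENCODE M21 transcripts. Named were all mRNAs, rRNAs and tested tRNAs, the 5 most counted copies, and per nuclear list the 3 smallest p, by a fixed rule. Members and lists were chosen with earlier results of these data known.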

Additional observations from a re-analysis of the deposited data

Results flagged for a closer look

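For 47 quantities checked in each group of 4, which makes 94 groups, 8 groups had a library far from the other 3 by Dixon's test at the 95% level. Chance gives this in about 1 of 20 groups, and several of the 8 overlap in what they count. Of these, 5 came from labelled knockout replicate 4: 7.41 rRNA counts per 100 mitochondrial mRNA counts, 67.9 rRNA counts per 100 counts of mt-Nd1, 56.7% of tRNA counts on mt-Tp, 92.8% of tRNA counts on minus-strand tRNAs, and 60.6 counts of mt-Tc and mt-Tn per 100 of mt-Tp. Labelled knockout replicate 1 stood apart in mt-Tl2, at 30.3 CPM, and in nuclear rRNA genes, at 0.216% of all counts. Labelled wild type replicate 4 stood apart in mt-Tw, at 1.21 CPM. The strand named for tRNAs is that of the gene, as it is not stated whether counting used strand.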

How the results depend on the processing

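The number of mitochondrial transcripts called was 0 under every alternative run. Over all genes, 3 were called, against 24 with DESeq2, 5 with no filter and 0 on protein-coding and mitochondrial rows alone, and 2 to 3 when single libraries were left out. The cause was not tested. Of 218 single-gene values under the other 9 settings, 214 kept their sign. The exceptions were all of mt-Tp, at 0.0040 with RLE, 0.0016 with nuclear genes alone for scaling, 0.0035 with at least 5 CPM in 4 libraries and 0.0036 on protein-coding and mitochondrial rows alone. Summing mitochondrial rows with their copies was chosen after the data were seen. With the replicate block, 2 genes were called over the table and 0 mitochondrial transcripts. Same-numbered libraries had correlations of 0.0745, 0.0345, -0.388 and -0.0871, so the numbers did not pair them.

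Leaving out 1 library at a time, 20 of the 25 tested members changed sign at least once, in 49 of 200 values, and none passed the threshold. The log2 fold change ran from -0.099 to 0.71 for mt-Rnr1, -0.25 to 0.44 for mt-Rnr2, -0.29 to 0.095 for mt-Nd1, -0.31 to 0.12 for mt-Nd2, -0.26 to 0.090 for mt-Nd4, -0.15 to 0.22 for mt-Nd5, -0.12 to 0.18 for mt-Nd6 and -0.36 to 0.15 for mt-Nd3. It ran from -0.24 to 0.12 for mt-Cytb, -0.23 to 0.15 for mt-Co1, -0.55 to 0.065 for mt-Co2, -1.03 to 0.16 for mt-Atp6 and -0.45 to 0.17 for mt-Atp8. Among the tRNAs it ran from -0.34 to 0.18 for mt-Tp, -0.18 to 0.59 for mt-Tc, -0.17 to 0.62 for mt-Tn, -1.16 to 0.040 for mt-Tl2, -0.53 to 0.074 for mt-Th, -0.68 to 0.019 for mt-Ts2 and -0.34 to 0.053 for mt-Te. The other 5 kept their sign, with ranges of -1.06 to -0.063 for mt-Co3, 0.11 to 0.60 for mt-Nd4l, -0.69 to -0.082 for mt-Tl1, -0.56 to -0.18 for mt-Ty and -0.64 to -0.34 for mt-Tw. Counts were too low to test 12 of the 22 tRNAs, and the cause was not tested.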
